A study of Mus musculus with 16 samples.

Results

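The 35 genes examined here are markers and working parts of the brain's small vessels: 25 endothelial and blood-brain barrier genes, 5 endothelial adhesion and activation genes and 5 pericyte genes. They are a list of gene names with no cut on their values, drawn up with earlier results of these data known, and 33 of the 35 could be tested among 19938 genes on the array. Ly6c1 was measured only by probe sets shared with another gene, and Ly6a had no probe set in the annotation used here, so neither was given a value. The arrays hold whole brain RNA from male mice of 8 weeks in 4 groups of 4: TNF knockout (TNFko) mice and C57BL/6 mice, each either 24 h after permanent middle cerebral artery occlusion (pMCAO, an experimental ischaemic stroke) or naive. No group was sham-operated, and a stroke change therefore includes the effect of surgery. Whether the 4 numbered replicates of a group are 4 animals is not said in the labels. Otherwise the p-values reflect technical spread alone. The knockout allele and its background strain are not described in the sources used here, and whole brain dilutes whatever happened in the occluded territory with the rest of the tissue.

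Endothelial cells of the brain form a barrier through tight junctions, a low rate of vesicle transport and a set of carriers and efflux pumps, and pericytes on the outer wall of capillaries maintain that state together with Wnt signals from neural cells. When vessels are activated by cytokines or ischaemia, the endothelium displays selectins and immunoglobulin-family adhesion molecules that let leukocytes roll and stop. Pericytes also regulate capillary tone, and their markers are often used to follow their number or state after stroke.

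The promoters of 4 of the tested genes are printed because those genes differed between stroke and naive brain: the lipid transporter gene Mfsd2a (chr4:122961139-122961438, minus strand), the adhesion genes Icam1 (chr9:21015690-21015989, plus strand) and Sele (chr1:164047984-164048283, plus strand), and the pericyte gene Rgs5 (chr1:169655251-169655550, plus strand). Each runs 5′ to 3′ on the strand of its gene in RefSeq's annotation of GRCm38.p6, covering 250 bases before to 50 bases after the transcription start. Capitals mark matches to the motifs that were searched on both strands. Those were TCAAAG (the TCF/LEF core of Wnt signalling), ACGTG (the hypoxia response core), AGGAAG (an ETS core, common in endothelial genes), TTCNNNGAA (the STAT palindrome), the NF-kB consensus and the paired half-site of interferon response elements. Among the printed matches none overlapped another.
Mfsd2a: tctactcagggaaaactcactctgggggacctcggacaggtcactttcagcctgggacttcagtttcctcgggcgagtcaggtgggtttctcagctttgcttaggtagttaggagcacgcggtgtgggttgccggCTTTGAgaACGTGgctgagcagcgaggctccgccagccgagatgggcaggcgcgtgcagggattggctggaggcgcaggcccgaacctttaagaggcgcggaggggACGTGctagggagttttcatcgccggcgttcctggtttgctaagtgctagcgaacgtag
Icam1: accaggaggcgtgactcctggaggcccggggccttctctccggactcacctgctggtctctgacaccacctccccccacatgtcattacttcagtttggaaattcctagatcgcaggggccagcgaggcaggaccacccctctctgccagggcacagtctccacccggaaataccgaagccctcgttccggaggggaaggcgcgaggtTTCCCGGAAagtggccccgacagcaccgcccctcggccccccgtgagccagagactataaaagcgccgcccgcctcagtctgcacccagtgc
Sele: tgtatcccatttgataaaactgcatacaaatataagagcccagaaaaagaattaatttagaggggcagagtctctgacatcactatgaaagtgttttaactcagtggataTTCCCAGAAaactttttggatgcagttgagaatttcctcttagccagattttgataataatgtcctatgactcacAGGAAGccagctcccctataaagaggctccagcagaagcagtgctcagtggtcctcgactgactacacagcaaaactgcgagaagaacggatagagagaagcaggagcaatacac
Rgs5: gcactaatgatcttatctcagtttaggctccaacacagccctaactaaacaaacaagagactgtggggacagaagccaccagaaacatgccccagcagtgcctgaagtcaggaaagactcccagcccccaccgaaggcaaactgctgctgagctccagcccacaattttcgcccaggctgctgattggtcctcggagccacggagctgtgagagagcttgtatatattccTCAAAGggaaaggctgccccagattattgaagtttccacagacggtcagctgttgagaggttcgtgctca

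In the Mfsd2a promoter the TCF/LEF core stood on the opposite strand (printed as its reverse complement) at positions -115 to -110 from the start, with hypoxia response cores at -107 to -103 and -9 to -5. Icam1 held a STAT palindrome at -42 to -34. Sele held a STAT palindrome at -140 to -132 and an ETS core at -65 to -60, and Rgs5 held a TCF/LEF core at -20 to -15. The fifth gene that passed a test, the claudin gene Cldn5, had none of the motifs in its window (chr16:18776597-18776896). These motifs are common. Over the 27025 promoters of the table, TCAAAG was found in 16.2%, ACGTG in 19.7%, AGGAAG in 35.1%, TTCNNNGAA in 8.47%, the NF-kB consensus in 4.35% and the interferon pair in 3.49%. Of the tested genes, 19 had a promoter in the table. TCAAAG was found in 3 of the 19, ACGTG in 3, AGGAAG in 7 and TTCNNNGAA in 3, the NF-kB consensus in 2 (Kdr and Flt1) and the interferon pair in 1 (Vtn). A match describes letters in this window and no binding was measured. Only exact matches were searched, so a variant of a motif goes unmarked, and a window without a match can still hold one.

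**Figure D1:**
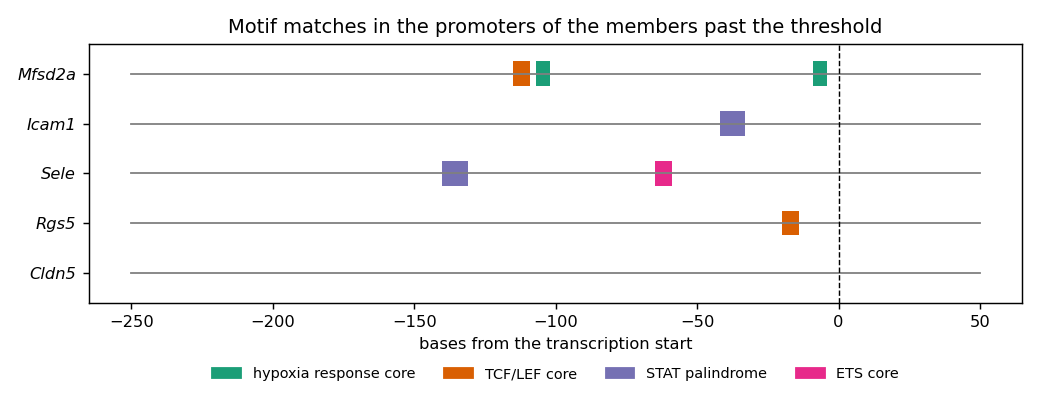
Motif matches in the promoters of the 5 genes that passed a test, drawn to scale from 250 bases before to 50 bases after the transcription start (dashed line). Mfsd2a carries 3 matches, Sele 2, Icam1 and Rgs5 1 each, and the Cldn5 window has none.

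Values are log2 probe set summaries, with array medians of 6.01 to 6.05 and correlations of 0.991 to 0.996 between arrays of a group. All 33 tested genes had 1 probe set each. Tnf, the gene named as knocked out, had 6.75, 6.60, 6.99 and 6.88 in the TNFko stroke arrays, 6.14, 6.46, 6.47 and 6.58 in the TNFko naive arrays, 5.64, 5.28, 5.67 and 5.68 in the C57BL/6 stroke arrays and 5.01, 5.72, 5.08 and 5.41 in the C57BL/6 naive arrays. The Tnf probe set was thus higher, not lower, in all 8 TNFko arrays, by 1.24 ± 0.14 (SE) after stroke (limma, adjusted p = 0.0001) and by 1.11 ± 0.14 in naive brain (adjusted p = 0.000558). Which part of the gene the knockout removes is not stated, so each direction between genotypes below is that of arrays labelled TNFko against arrays labelled C57BL/6. All C57BL/6 samples have names that begin with KL42. Of the TNFko samples, 1 stroke and 3 naive begin with KL76, and 3 stroke and 1 naive with KL82. Genotype and this prefix cannot be told apart, and within TNFko the prefixes are spread unevenly over stroke and naive arrays. What the prefix stands for is not stated. Markers of neurons (9 genes) averaged 10.9 to 11.1 per array.

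The tests below use limma across all 19938 genes with Benjamini-Hochberg adjustment and a threshold of 0.05, and changes are log2 differences ± SE with n = 4 arrays per group. After stroke in TNFko brain 1 gene of the 33, Sele, was higher (0.537% of all genes were called higher) and 1, Rgs5, was lower (0.105% of all genes). In C57BL/6 brain 1 gene, Mfsd2a, was higher (1.34% of all genes) and 0 were lower (0.336% of all genes). With both genotypes averaged, Mfsd2a, Icam1 and Sele were higher (3 genes, 1.78% of all genes) and Rgs5 was lower (1 gene, 1.03% of all genes). At an unadjusted p under 0.05 the count was 9 of 33 in TNFko brain (27.3%, against 8.39% of all genes). It was 6 of 33 in C57BL/6 brain (18.2%, against 17.1% of all genes) and 11 of 33 over both (33.3%, against 16.4% of all genes). The median change of the 33 was -0.01 in TNFko brain and 0.05 in C57BL/6 brain, where all genes had medians of 0 in TNFko and -0.005 in C57BL/6 brain. Icam1 and Sele belong to the adhesion and activation genes, Mfsd2a to the transport genes and Rgs5 to the pericyte genes. Both 95% limits of the change lay within 1.5-fold for 28 of 33 genes in TNFko brain (84.8%, against 97.0% of all genes) and for 31 of 33 in C57BL/6 brain (93.9%, against 95.6% of all genes).

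**Figure D2:**
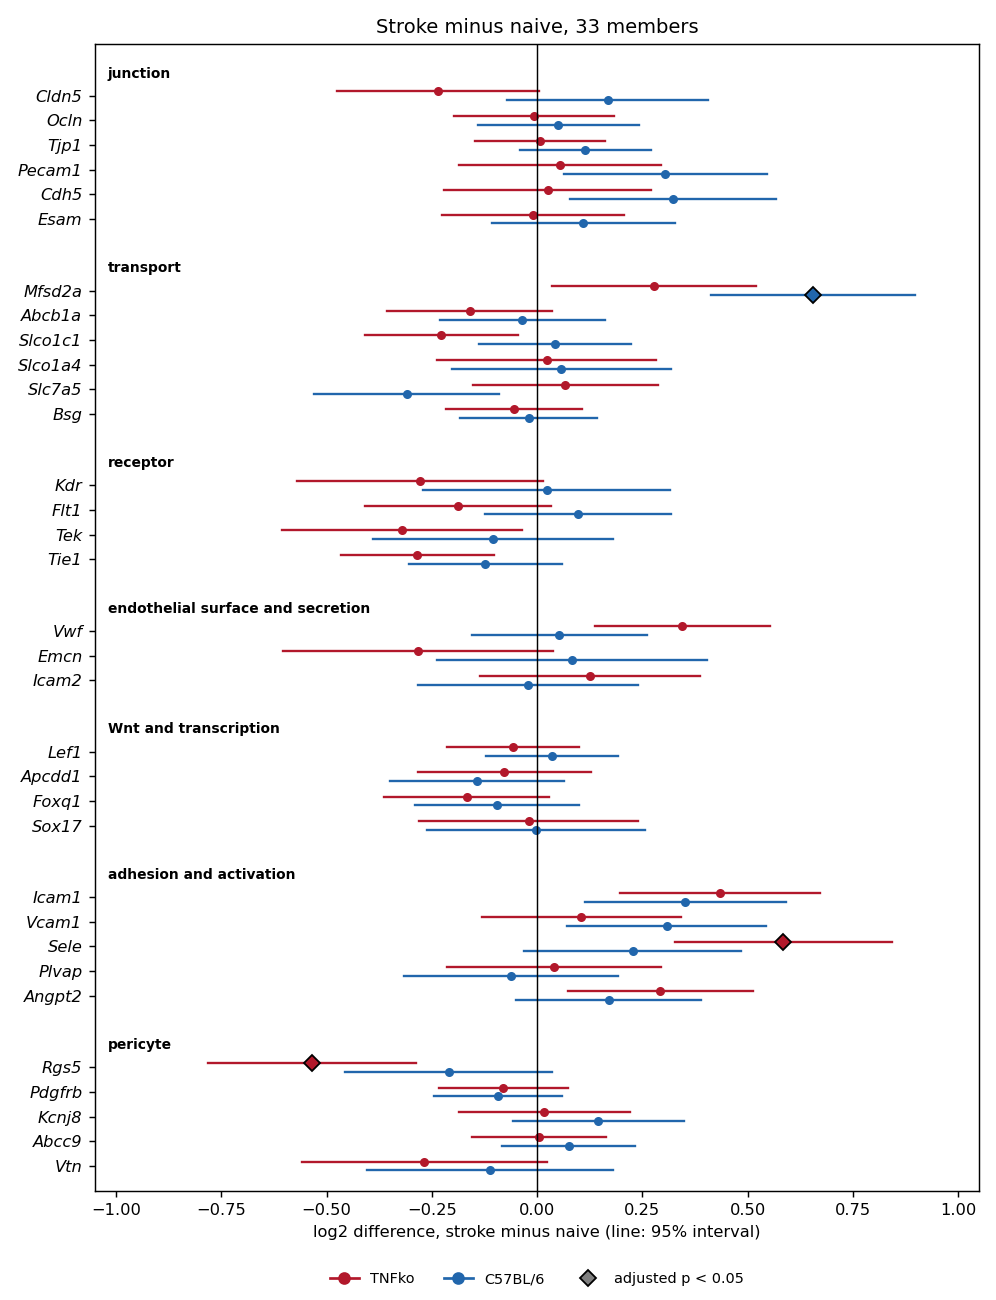
Stroke minus naive for the 33 tested genes, grouped by role, in TNFko (red) and C57BL/6 (blue) brain. Points are log2 differences and lines 95% intervals from limma, and diamonds mark adjusted p under 0.05. Sele and Rgs5 pass in TNFko, Mfsd2a passes in C57BL/6, and most intervals include 0.

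Among the adhesion molecules Icam1 and Sele rose after stroke. Icam1, an immunoglobulin-family ligand on which leukocytes arrest, had 6.92, 6.43, 6.37 and 6.52 in TNFko stroke arrays, against 6.26, 6.26, 6.03 and 5.95 in TNFko naive arrays. The C57BL/6 arrays read 6.75, 6.53, 6.70 and 6.57 after stroke and 6.31, 6.33, 6.43 and 6.07 in naive mice. Stroke and naive arrays did not overlap in either genotype. Over both genotypes Icam1 rose by 0.39 ± 0.08 (1.31-fold, 95% interval 0.23 to 0.56, limma adjusted p = 0.00901). Within a genotype the change was 0.43 ± 0.11 in TNFko (adjusted p = 0.12) and 0.35 ± 0.11 in C57BL/6 (adjusted p = 0.128), neither past the threshold. The difference between those changes was 0.08 ± 0.16 with a 95% interval of -0.25 to 0.42.

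Sele encodes E-selectin, the cytokine-induced endothelial selectin on which leukocytes roll. It had 6.14, 5.71, 5.72 and 5.74 in TNFko stroke arrays, against 5.30, 5.49, 5.17 and 5.01 in TNFko naive arrays. The C57BL/6 arrays had 5.55, 5.57, 5.95 and 5.38 after stroke and 5.33, 5.40, 5.50 and 5.31 in naive mice. The TNFko groups did not overlap, with stroke array 1 well above the other stroke arrays, while the C57BL/6 groups did overlap. Sele rose by 0.58 ± 0.12 in TNFko brain (1.5-fold, 95% interval 0.33 to 0.84, limma adjusted p = 0.0287) and by 0.41 ± 0.09 over both genotypes (adjusted p = 0.0132). In C57BL/6 brain the change was 0.23 ± 0.12 (adjusted p = 0.354). The test of the difference between genotypes gave 0.36 ± 0.17 (95% interval -0.01 to 0.72, adjusted p = 0.677), so a larger change in TNFko brain was not shown. The call in TNFko brain was lost without TNFko stroke array 1, 3 or 4 or TNFko naive array 1, 3 or 4 (adjusted p up to 0.114), and with only these groups in the fit (adjusted p = 0.0506). The stroke change was 0.82 within KL76 (1 stroke and 3 naive arrays) and 0.71 within KL82 (3 stroke and 1 naive arrays). The 1 KL76 stroke array was the highest TNFko stroke array (6.14), and the 1 KL82 naive array was the lowest TNFko naive array (5.01).

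Other activation genes did not pass. Vcam1, the ligand of the integrin VLA4, had 7.72, 7.77, 8.02 and 8.06 in TNFko stroke arrays, 7.53, 7.83, 7.98 and 7.81 in TNFko naive arrays, 7.57, 7.92, 8.02 and 7.86 in C57BL/6 stroke arrays and 7.52, 7.63, 7.63 and 7.36 in C57BL/6 naive arrays. Its change was 0.11 ± 0.11 in TNFko brain (adjusted p = 0.895) and 0.31 ± 0.11 in C57BL/6 brain (limma adjusted p = 0.174). Angpt2, the angiopoietin that opposes Tie2 signalling in activated vessels, had 5.42, 5.04, 5.47 and 5.45 in TNFko stroke arrays against 5.04, 5.02, 5.02 and 5.13 in TNFko naive arrays. Angpt2 had, in C57BL/6 arrays, 5.32, 5.09, 5.44 and 5.16 after stroke and 4.94, 5.23, 4.94 and 5.22 in naive mice. Its change over both genotypes was 0.23 ± 0.07 (limma adjusted p = 0.107), and it passed only in the fit without TNFko stroke array 2, the lowest of that group. Plvap, the diaphragm protein of fenestrated and leaky vessels, had a change of -0.01 over both genotypes with a 95% interval of -0.19 to 0.17. At 24 h these arrays thus bound the average change of its probe set value to less than 1.5-fold. Averaged over the 5 adhesion and activation genes and taken relative to each gene's own mean, the TNFko arrays stood at 0.27, 0.02, 0.17 and 0.25 after stroke and at -0.08, -0.04, -0.12 and -0.20 in naive mice. The C57BL/6 arrays stood at 0.08, 0.03, 0.16 and -0.01 after stroke and at -0.23, -0.04, -0.07 and -0.19 in naive mice. Every stroke array was above every naive array of its own genotype.

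These genes are not exclusive to endothelium, and markers of other cells moved beside them. In the mean over 9 markers of activated microglia and macrophages the ranges were 5.76 to 5.84 in TNFko stroke and 5.30 to 5.43 in TNFko naive arrays, and 5.79 to 6.15 in C57BL/6 stroke and 5.22 to 5.37 in C57BL/6 naive arrays. Reactive astrocyte markers (10 genes) ranged over 7.19 to 7.28 in TNFko stroke and 5.88 to 6.08 in TNFko naive arrays, and over 6.80 to 7.63 in C57BL/6 stroke and 5.89 to 6.13 in C57BL/6 naive arrays. Neutrophil and monocyte markers (9 genes) ranged over 3.95 to 4.20 in TNFko stroke and 3.69 to 3.75 in TNFko naive arrays, and over 3.75 to 4.26 in C57BL/6 stroke and 3.74 to 3.87 in C57BL/6 naive arrays. The C57BL/6 ranges of these 9 overlapped, and all their means lay below the array medians of 6.01 to 6.05. In each genotype 0 of the 9 were called, and 2 were higher over both genotypes (against 1.78% of all genes). In each genotype 4 of the 9 activated microglia and macrophage markers and 8 of the 10 reactive astrocyte markers were called higher. The all-gene shares were 0.537% in TNFko and 1.34% in C57BL/6 brain. The part of these cells in the Icam1 and Sele increases was not tested.

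Among the 6 transport genes, Mfsd2a was the one that passed. It encodes the carrier of lysophosphatidylcholine lipids into brain, and in mice it also restrains vesicle traffic across brain endothelium. It had 8.00, 7.61, 7.69 and 7.83 in TNFko stroke arrays and 7.62, 7.29, 7.62 and 7.49 in TNFko naive arrays, groups that overlap. The C57BL/6 arrays had 8.21, 7.77, 7.90 and 7.85 after stroke and 7.12, 7.25, 7.19 and 7.55 in naive mice, with no overlap. Mfsd2a rose by 0.66 ± 0.12 in C57BL/6 brain (1.57-fold, 95% interval 0.41 to 0.90, limma adjusted p = 0.00586) and by 0.47 ± 0.08 over both genotypes (adjusted p = 0.0024). The TNFko change was 0.28 ± 0.12 (adjusted p = 0.495), and the difference between genotypes was -0.38 ± 0.16 (95% interval -0.72 to -0.04, adjusted p = 0.639). The difference thus did not pass across all genes. Within KL76 (1 stroke and 3 naive arrays) the TNFko change was 0.49, and within KL82 (3 stroke and 1 naive arrays) it was 0.22. Mfsd2a passed in C57BL/6 brain and over both genotypes whichever of the 16 arrays was left out. In bulk brain, fewer cells of a type and less RNA per cell cannot be told apart, and this holds for increases as well as for decreases.

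The other 5 did not pass. Slc7a5, the large neutral amino acid carrier, had 8.54, 8.35, 8.10 and 8.22 in TNFko stroke arrays and 8.22, 8.31, 8.21 and 8.20 in TNFko naive arrays. It had 8.61, 8.32, 8.17 and 8.15 in C57BL/6 stroke arrays and 8.53, 8.77, 8.65 and 8.54 in C57BL/6 naive arrays. All 4 TNFko naive arrays lay below the lowest C57BL/6 naive array. Its change in C57BL/6 brain was -0.31 ± 0.10 (limma adjusted p = 0.141). Without C57BL/6 stroke array 1 the count of genes past the threshold in C57BL/6 brain was 3, with Slc7a5 lower and the cadherin gene Cdh5 higher beside Mfsd2a. The thyroid hormone and anion carrier Slco1c1 had 8.50, 8.45, 8.44 and 8.38 in TNFko stroke arrays, below the 8.59, 8.64, 8.81 and 8.64 of TNFko naive arrays. Its change there was -0.23 ± 0.09 (adjusted p = 0.43), and in C57BL/6 brain it was 0.04 ± 0.09 (adjusted p = 0.842). The efflux pump gene Abcb1a (P-glycoprotein) had a change over both genotypes of -0.10 with a 95% interval of -0.24 to 0.04. For the organic anion carrier Slco1a4 it was 0.04 (95% interval -0.14 to 0.22), and for Bsg, the chaperone of lactate carriers, -0.04 (95% interval -0.15 to 0.08).

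Pericyte genes were led by Rgs5, a regulator of G protein signalling that marks brain pericytes. Rgs5 had 7.07, 7.16, 7.20 and 7.33 in TNFko stroke arrays, all below the 7.58, 7.64, 7.85 and 7.83 of TNFko naive arrays. The C57BL/6 arrays had 7.00, 7.44, 7.46 and 7.72 after stroke and 7.47, 7.63, 7.76 and 7.60 in naive mice, with overlap and with stroke array 1 the lowest. Rgs5 fell by 0.54 on the log2 scale in TNFko brain (SE 0.12, 1.45-fold lower, 95% interval -0.78 to -0.29, limma adjusted p = 0.0381). Over both genotypes the change was -0.37 ± 0.08 (adjusted p = 0.0166), and in C57BL/6 brain it was -0.21 ± 0.12 (adjusted p = 0.372). The difference between genotypes, -0.33 ± 0.17, did not pass (95% interval -0.67 to 0.02, adjusted p = 0.684). In TNFko brain the call was lost without any 1 of the 8 TNFko arrays, C57BL/6 naive array 2 or 4 or C57BL/6 stroke array 2 (adjusted p up to 0.148). With the name prefix as a term the change was -0.61 (adjusted p = 0.0629). The stroke change was -0.62 within KL76 (1 stroke and 3 naive arrays) and -0.60 within KL82 (3 stroke and 1 naive arrays). Each of these values thus rests on 1 array on one side. Over both genotypes the call was kept without any 1 array.

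The other 4 pericyte genes did not follow Rgs5 past the threshold. Pdgfrb, the receptor through which endothelial PDGF-B recruits pericytes, had 7.46, 7.56, 7.48 and 7.45 in TNFko stroke arrays, 7.57, 7.59, 7.61 and 7.50 in TNFko naive arrays, 7.38, 7.44, 7.24 and 7.19 in C57BL/6 stroke arrays and 7.35, 7.37, 7.48 and 7.42 in C57BL/6 naive arrays. Its change over both genotypes was -0.09 ± 0.05 (95% interval -0.19 to 0.02). Kcnj8 and Abcc9, which encode the pore and the sulphonylurea receptor subunit of the pericyte ATP-sensitive potassium channel, had changes over both genotypes of 0.08 (95% interval -0.06 to 0.22) and 0.04 (95% interval -0.07 to 0.15). Vtn, the secreted matrix protein vitronectin, had 9.11, 9.43, 9.71 and 9.53 in TNFko stroke arrays and 9.50, 9.62, 9.91 and 9.82 in TNFko naive arrays. Vtn had, in C57BL/6 arrays, 9.16, 9.28, 9.19 and 9.73 after stroke and 9.29, 9.29, 9.55 and 9.68 in naive mice. Its change over both genotypes was -0.19 ± 0.10 (limma adjusted p = 0.356). The mean over 19 further pericyte and smooth muscle genes ranged over 5.91 to 6.00 in TNFko stroke and 5.94 to 6.10 in TNFko naive arrays, and over 5.84 to 6.05 in C57BL/6 stroke and 5.94 to 6.07 in C57BL/6 naive arrays, so the stroke and naive ranges overlapped.

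**Figure D3:**
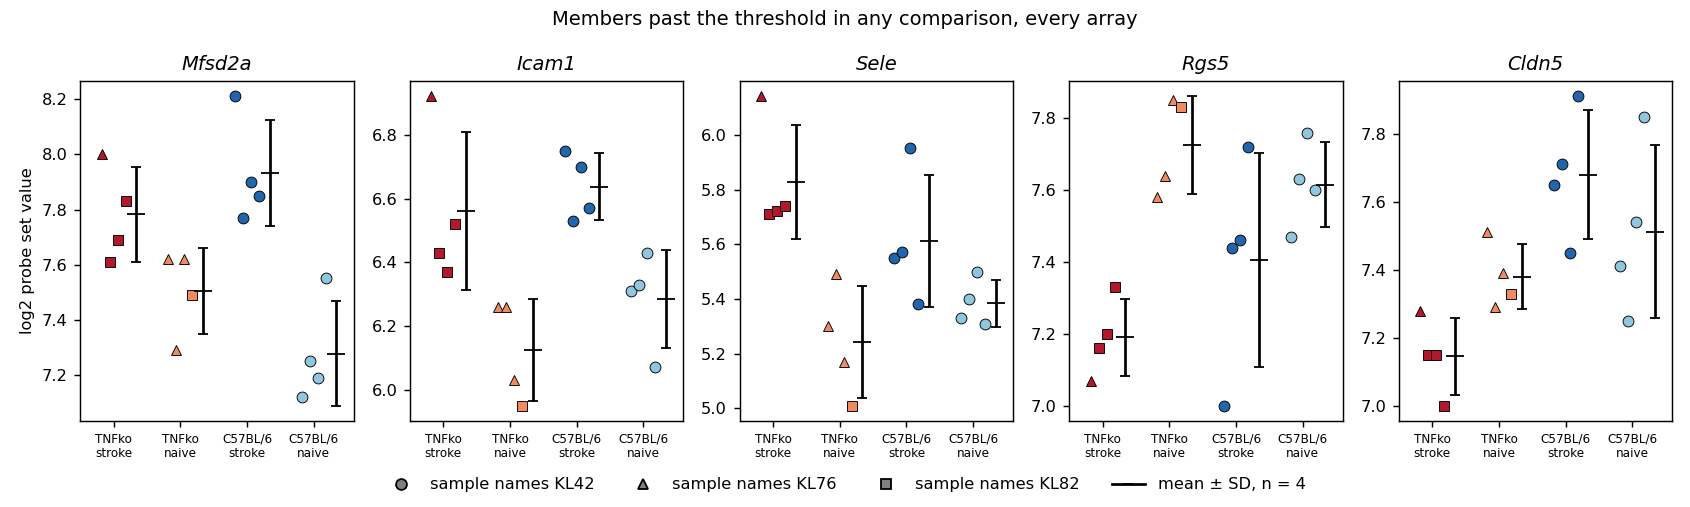
Log2 values of the 5 genes that passed in any comparison, every array shown, with mean ± SD (n = 4) beside each group, from TNFko stroke on the left to C57BL/6 naive on the right. Marker shapes give the sample name prefix. Icam1 is higher after stroke in both genotypes without overlap, Rgs5 is lower after stroke without overlap in TNFko, and the Cldn5 stroke arrays of TNFko lie below all those of C57BL/6.

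Junction genes did not pass in either stroke comparison. Ocln (occludin) and Tjp1 (the ZO-1 scaffold), both of the tight junction, had changes over both genotypes of 0.02 (95% interval -0.11 to 0.16) and 0.06 (95% interval -0.05 to 0.17). These limits bound the average change of either probe set value in whole brain to less than 1.5-fold. The Ocln group means, 5.82 to 5.88, lay below the array medians of 6.01 to 6.05, and detection calls were not used. Cdh5, the VE-cadherin of adherens junctions, had 6.18, 6.09, 6.05 and 6.09 in TNFko stroke arrays, 6.14, 6.11, 6.09 and 5.97 in TNFko naive arrays, 5.83, 6.26, 6.39 and 6.46 in C57BL/6 stroke arrays and 5.65, 5.85, 6.12 and 6.03 in C57BL/6 naive arrays. Its change was 0.03 ± 0.12 in TNFko brain (adjusted p = 0.991) and 0.32 ± 0.12 in C57BL/6 brain (limma adjusted p = 0.17). Pecam1 (CD31, an endothelial adhesion protein) showed 0.06 ± 0.12 in TNFko brain (adjusted p = 0.964) and 0.30 ± 0.12 in C57BL/6 brain (adjusted p = 0.185). Esam, an endothelial tight junction adhesion protein, had -0.01 ± 0.10 in TNFko brain and 0.11 ± 0.10 in C57BL/6 brain. In C57BL/6 brain the changes of all 6 junction genes were above 0, with a median of 0.14, and in TNFko brain 3 were above 0 and 3 below. Of all 19938 genes, 9626 were above 0 in C57BL/6 and 9843 in TNFko brain.

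Cldn5, the claudin that seals brain endothelial tight junctions, separated the genotypes after stroke. It had 7.28, 7.15, 7.15 and 7.00 in TNFko stroke arrays, against 7.65, 7.71, 7.45 and 7.91 in C57BL/6 stroke arrays, with no overlap. The naive arrays had 7.51, 7.29, 7.39 and 7.33 in TNFko and 7.41, 7.25, 7.54 and 7.85 in C57BL/6 brain and did overlap. After stroke the TNFko arrays were lower by 1.45-fold (-0.54 ± 0.11 on the log2 scale, 95% interval -0.77 to -0.30, limma adjusted p = 0.0396), and in naive brain the difference was -0.13 ± 0.11 (adjusted p = 0.582). The stroke changes were -0.23 ± 0.11 in TNFko brain (adjusted p = 0.606) and 0.17 ± 0.11 in C57BL/6 brain (adjusted p = 0.476). Their difference was -0.40 ± 0.16 (95% interval -0.74 to -0.06) with an adjusted p of 0.614, so a different response to stroke was not shown across all genes. The call after stroke was lost without any 1 of the 4 TNFko stroke arrays, C57BL/6 stroke array 1, 2 or 4, TNFko naive array 2, 3 or 4 or C57BL/6 naive array 3, with adjusted p up to 0.169. With only the stroke groups in the fit the adjusted p was 0.0644. Against the C57BL/6 stroke mean, the KL76 stroke array differed by -0.40 and the KL82 stroke arrays by -0.58.

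Between genotypes after stroke, 0 of the 33 genes were higher (0.166% of all genes) and 1, Cldn5, was lower (0.271% of all genes). At an unadjusted p under 0.05 the count was 10 of 33 (30.3%, against 11.3% of all genes), of which 8 were lower and 2 higher in TNFko. Of all 19938 genes 1158 were lower and 1089 higher at that threshold. Of the 33 differences 25 were below 0, with a median of -0.13, against a median of -0.0075 over all genes, of which 10393 of 19938 were below 0. The 33 genes were measured on the same arrays, so their signs are not independent. The 8 were Cldn5, the transporters Slco1c1 and Abcb1a, the receptors Flt1 and Tie1, the surface proteins Emcn and Esam, and the potassium channel pore Kcnj8. Their differences ran from -0.54 for Cldn5 and -0.36 for Emcn to -0.20 for Abcb1a. The smallest adjusted p after Cldn5 was 0.201, for Slco1c1 (-0.28 ± 0.09). The 2 were Plvap (0.29 ± 0.12, limma adjusted p = 0.372) and Pdgfrb (0.17 ± 0.07, adjusted p = 0.37). Both 95% limits lay within 1.5-fold for 31 of 33 (93.9%, against 96.7% of all genes).

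In naive brain 0 of the 33 genes were higher in TNFko (0.221% of all genes) and 0 were lower (0.166% of all genes) with limma. At an unadjusted p under 0.05 the count was 4 of 33 (12.1%, against 16.6% of all genes), Vcam1 and Pdgfrb higher and Slc7a5 and Icam2 lower in TNFko. Slc7a5 had the smallest p, with a difference of -0.39 ± 0.10 (95% interval -0.61 to -0.17, adjusted p = 0.0944). The median difference of the 33 was -0.025, against -0.005 over all genes, and both 95% limits lay within 1.5-fold for 32 of 33 (97.0%, against 95.7% of all genes). In the test of whether stroke acted differently in the genotypes, 0 of 33 genes passed, as did 0 of all genes (0%). At an unadjusted p under 0.05 there were 4 of 33 (12.1%, against 7.42% of all genes): Cldn5, Mfsd2a and Slco1c1 below 0, and Slc7a5 above 0. For 21 of 33 genes (63.6%, against 84.7% of all genes) both 95% limits of that difference lay within 1.5-fold, so for the other 12 a difference of that size is within the interval.

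**Figure D4:**
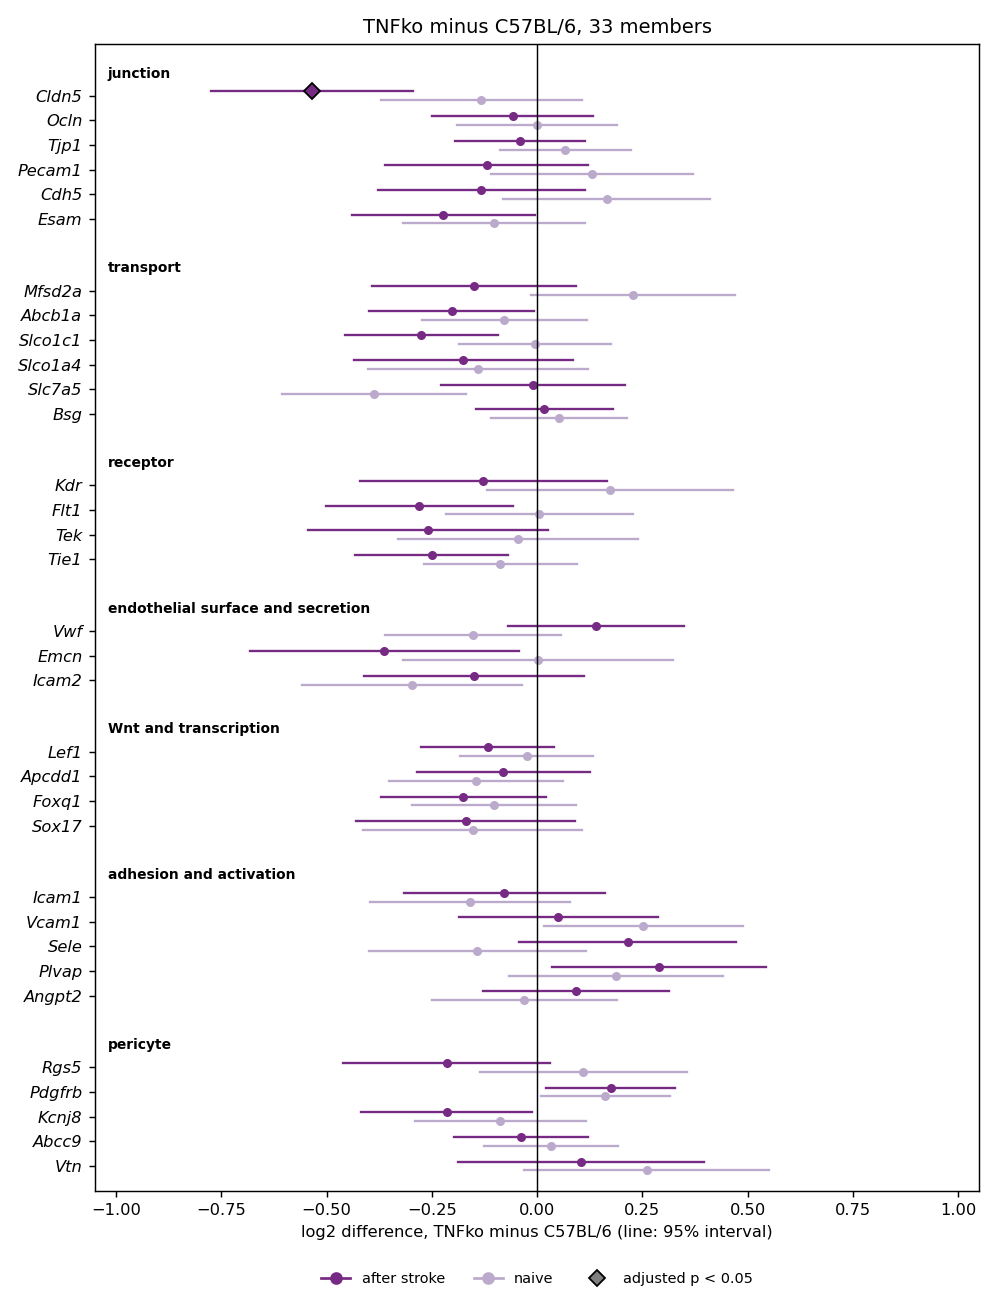
TNFko minus C57BL/6 for the 33 tested genes by role, after stroke (dark) and in naive brain (light). Points are log2 differences, lines 95% intervals from limma, and the diamond marks adjusted p under 0.05. Only Cldn5 after stroke passes, and 25 of the 33 dark points lie below 0.

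The 4 receptors of vascular growth factors all had stroke changes below 0 in TNFko brain, as did the 4 Wnt and transcription genes. Of all 19938 genes, 10002 had a stroke change below 0 in TNFko brain. Kdr (VEGFR2, the main signalling VEGF receptor) had a change of -0.28 ± 0.14 in TNFko and 0.02 ± 0.14 in C57BL/6 brain. Flt1 (VEGFR1, largely a decoy for VEGF) had -0.19 ± 0.11 in TNFko and 0.10 ± 0.11 in C57BL/6 brain. Tek (Tie2, the angiopoietin receptor) had 5.95, 6.45, 6.49 and 6.52 in TNFko stroke arrays and 6.55, 6.60, 6.73 and 6.81 in TNFko naive arrays, which do not overlap. Tek had, in C57BL/6 arrays, 6.30, 6.74, 6.43 and 6.98 after stroke and 6.60, 6.64, 6.78 and 6.85 in naive mice. Its change was -0.32 ± 0.14 in TNFko (limma adjusted p = 0.517) and -0.11 ± 0.14 in C57BL/6 brain (adjusted p = 0.737). Tie1, its orphan partner, had 6.22, 6.15, 6.15 and 6.07 in TNFko stroke arrays, below the 6.51, 6.42, 6.43 and 6.37 of TNFko naive arrays. The C57BL/6 arrays had 6.19, 6.55, 6.35 and 6.50 after stroke and 6.54, 6.52, 6.35 and 6.67 in naive mice. Over both genotypes the Tie1 change was -0.20 ± 0.06 (95% interval -0.33 to -0.08, adjusted p = 0.0854). It passed only when the third of genes with the lowest mean was left out. None of the 4 receptors passed in either genotype with all genes.

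Among surface and secreted proteins, Vwf (von Willebrand factor, which tethers platelets) had 6.89, 6.83, 6.50 and 6.69 in TNFko stroke arrays, against 6.41, 6.52, 6.38 and 6.22 in TNFko naive arrays. Vwf had, in C57BL/6 arrays, 6.61, 6.67, 6.63 and 6.44 after stroke and 6.43, 6.51, 6.77 and 6.43 in naive mice. Its change was 0.34 ± 0.10 in TNFko (limma adjusted p = 0.191) and 0.05 ± 0.10 in C57BL/6 brain (adjusted p = 0.828). Emcn (endomucin, a sialomucin of capillaries and veins) had -0.28 ± 0.15 in TNFko and 0.08 ± 0.15 in C57BL/6 brain, and Icam2, a constitutive endothelial adhesion molecule, had 0.12 ± 0.13 in TNFko and -0.02 ± 0.13 in C57BL/6 brain. The Wnt target genes Lef1 and Apcdd1 and the endothelial transcription factors Foxq1 and Sox17 had changes over both genotypes between -0.13 and -0.01. Each had both 95% limits within 1.5-fold in every comparison made here, the difference between genotypes included.

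Genes whose 4 arrays of one group all lay beyond the 4 of the other were also counted. In TNFko brain 2 genes were higher after stroke without overlap (Icam1 and Sele, 6.06% of the 33, against 2.8% of all genes) and 5 were lower (Cldn5, Slco1c1, Tek, Tie1 and Rgs5, 15.2%, against 3.07% of all genes). In C57BL/6 brain 2 were higher (Mfsd2a and Icam1, 6.06%, against 5.03% of all genes) and 0 were lower (3.23% of all genes). Between genotypes after stroke 1 was higher in TNFko (Pdgfrb, 3.03%, against 3.04% of all genes) and 3 were lower (Cldn5, Abcb1a and Slco1c1, 9.09%, against 2.76% of all genes). In naive brain 1 was higher in TNFko (Pdgfrb, against 4.5% of all genes) and 1 was lower (Slc7a5, against 4.15% of all genes).

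Averaged over the 23 endothelial genes outside the adhesion group and taken relative to each gene's own mean, the TNFko stroke arrays stood at -0.07, -0.09, -0.07 and -0.10 and the TNFko naive arrays at -0.05, -0.05, 0.06 and -0.04. The C57BL/6 stroke arrays stood at 0.00, 0.11, 0.04 and 0.17 and the C57BL/6 naive arrays at -0.08, -0.02, 0.11 and 0.09. The 4 TNFko stroke arrays lay close together and below all C57BL/6 stroke arrays, while the naive ranges overlapped. C57BL/6 stroke array 4 was the highest of all 16 arrays for 8 of the 23 genes, and TNFko stroke array 4 the lowest for 5. The 5 pericyte genes stood at -0.20, -0.08, -0.02 and 0.01 in TNFko stroke and 0.01, -0.00, 0.23 and 0.16 in TNFko naive arrays, and at -0.12, -0.03, -0.07 and 0.09 in C57BL/6 stroke and -0.11, -0.02, 0.10 and 0.05 in C57BL/6 naive arrays.

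**Figure D5:**
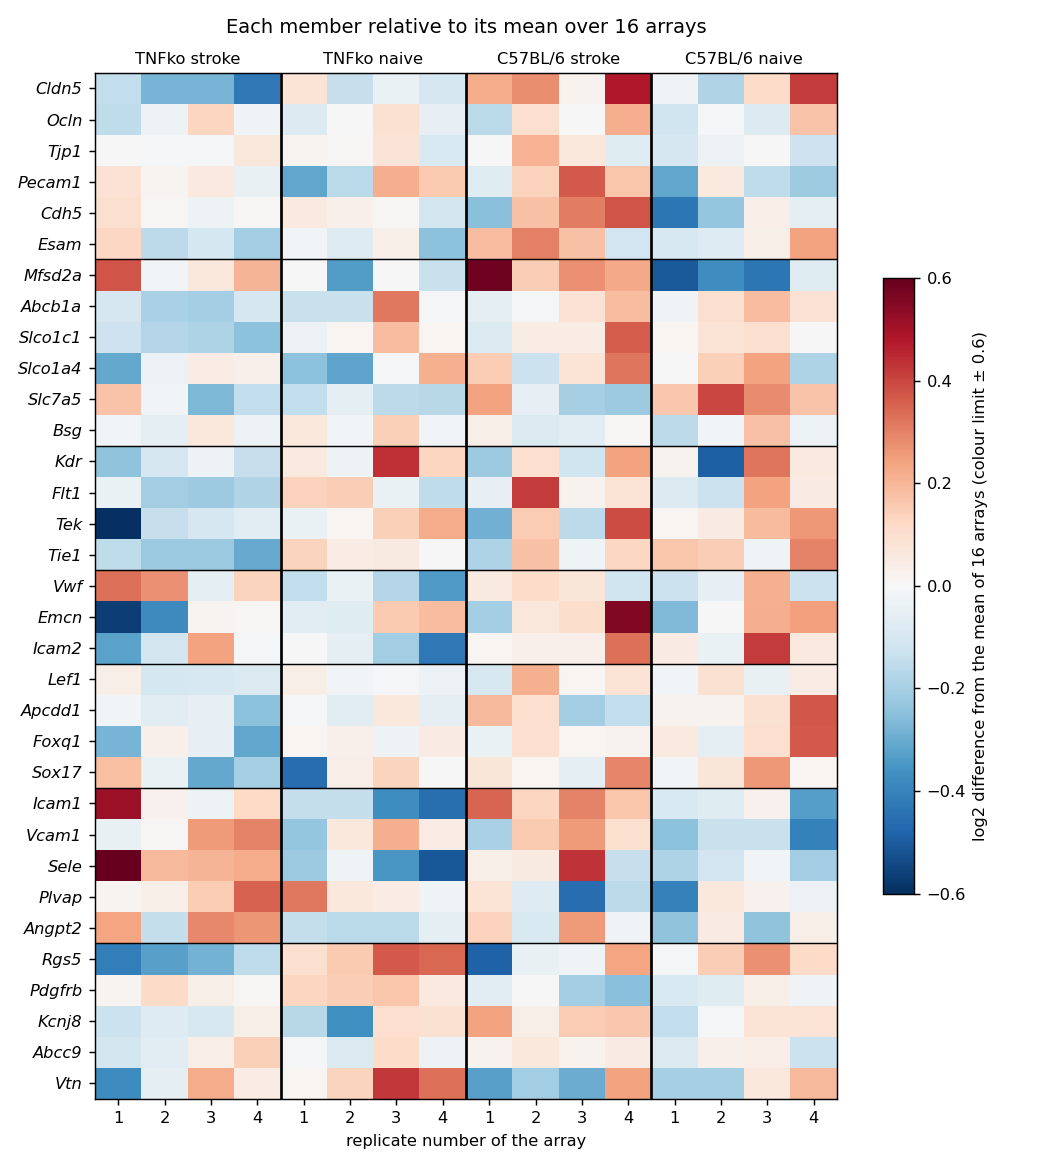
Each of the 33 tested genes (rows, in order of role) in each of the 16 arrays (columns, by group and replicate number), as the log2 difference from the gene's own mean over all arrays, with colours limited at ± 0.6. The adhesion rows are redder in stroke columns, the Rgs5 row is bluer in stroke columns of TNFko, and the endothelial rows of C57BL/6 stroke array 4 are among the reddest.

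Lists of related genes beyond the 33 put these values in context. They were chosen with earlier results of these data known. Their called counts stand against all-gene shares of 0.537% higher and 0.105% lower in TNFko brain and 1.34% higher and 0.336% lower in C57BL/6 brain. Their counts at an unadjusted p under 0.05 stand against 8.39% of all genes in TNFko and 17.1% in C57BL/6 brain. Of 19 genes of leukocyte adhesion and endothelial activation, 1 was higher after stroke in TNFko brain and 2 in C57BL/6 brain. Of the 19, those at an unadjusted p under 0.05 numbered 8 in TNFko (42.1%, against 8.39% of all genes) and 7 in C57BL/6 brain (36.8%, against 17.1% of all genes), with a median change of 0.09 in TNFko and 0.10 in C57BL/6 brain. Called in both was Ch25h, a cholesterol 25-hydroxylase induced in activated macrophages and endothelium. Ch25h ranged over 5.49 to 5.87 in TNFko stroke and 4.37 to 4.87 in TNFko naive arrays, and over 5.40 to 6.16 in C57BL/6 stroke and 4.45 to 4.78 in C57BL/6 naive arrays, and rose by 1.13 ± 0.10 over both genotypes (limma adjusted p = 8.71e-07). The other gene called in C57BL/6 brain, the leukocyte integrin chain Itgb2 (0.75 ± 0.11, adjusted p = 0.00062), is made by microglia and blood leukocytes rather than by vessels. Over both genotypes 4 of the 19 were higher (against 1.78% of all genes) and 1, Selplg, was lower (against 1.03% of all genes). Selplg changed by -0.41 ± 0.09 (limma adjusted p = 0.0167). Of 21 basement membrane genes and proteases, 3 were higher in TNFko brain (Adamts1, Timp1 and Mmp3, where 0.537% of all genes were higher) and 1 in C57BL/6 brain (Adamts1, where 1.34% were). Of the 21, those at an unadjusted p under 0.05 numbered 5 in TNFko (23.8%, against 8.39% of all genes) and 7 in C57BL/6 brain (33.3%, against 17.1%). The matrix protease Adamts1 ranged over 7.39 to 7.68 in TNFko stroke and 6.60 to 6.77 in TNFko naive arrays, and over 6.67 to 7.46 in C57BL/6 stroke and 6.35 to 6.65 in C57BL/6 naive arrays. Between genotypes after stroke, the venular chemokine receptor Ackr1 was lower in TNFko (-0.40 ± 0.08, limma adjusted p = 0.0299). In naive brain Ackr1 already ranged lower in TNFko, 7.50 to 7.68 against 7.69 to 7.93 in C57BL/6 arrays, and was not called there. Timp1, a protease inhibitor that also stands in the reactive astrocyte list, rose by 1.26 ± 0.23 in TNFko brain (adjusted p = 0.0105). It ranged over 5.58 to 6.81 in C57BL/6 stroke and 4.74 to 5.52 in C57BL/6 naive arrays. For Mmp3 the C57BL/6 ranges were 4.43 to 5.37 after stroke and 4.27 to 4.57 in naive mice. Over both genotypes Timp1 rose by 1.07 ± 0.16 (limma adjusted p = 0.000682) and Mmp3 by 0.68 ± 0.11 (adjusted p = 0.00125). In that comparison 3 of the 21 were higher (against 1.78% of all genes) and 1, Lama2, was lower (against 1.03% of all genes). Lama2 changed by -0.275 ± 0.07 (limma adjusted p = 0.0266). Of the 21, 13 had a change below 0 over both genotypes. Of the 21 genes, 0 passed in the test of the difference between the stroke changes.

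Among 25 further endothelial identity genes 0 passed after stroke in TNFko brain and 2 were higher in C57BL/6 brain, where 1.34% of all genes were. The counts at an unadjusted p under 0.05 were 4 in TNFko (16%, against 8.39% of all genes) and 6 in C57BL/6 brain (24%, against 17.1%). Of those, 1 was higher and 3 lower in TNFko, and 3 were higher and 3 lower in C57BL/6 brain. Of the 25, 14 were below 0 in TNFko and 15 in C57BL/6 brain, with medians of -0.035 in TNFko and -0.03 in C57BL/6. Of all 19938 genes, 10002 were below 0 in TNFko and 10262 in C57BL/6 brain. The 2 called in C57BL/6 brain were Pglyrp1, a peptidoglycan recognition protein that neutrophils also store (0.80 ± 0.12, limma adjusted p = 0.0016), and the endothelial adhesion receptor Adgrl4 (0.46 ± 0.08, adjusted p = 0.00586). Adgrl4 ranged over 6.60 to 6.90 in TNFko stroke arrays and 7.11 to 7.26 in C57BL/6 stroke arrays. It was lower in TNFko after stroke by -0.47 ± 0.08 (adjusted p = 0.00603), as was the adrenomedullin receptor partner Ramp2 (-0.48 ± 0.09, adjusted p = 0.0122). These 2 were the ones of the 25 called in that comparison, where 0.271% of all genes were lower. At an unadjusted p under 0.05 there were 7 of the 25 (28%, against 11.3% of all genes). In naive brain Ramp2 ranged over 6.95 to 7.33 in TNFko and 7.25 to 7.43 in C57BL/6 arrays. Adgrl4 ranged there over 6.59 to 6.78 in TNFko and 6.70 to 6.77 in C57BL/6 arrays. The mean over the 25 ranged over 6.42 to 6.45 in TNFko stroke and 6.49 to 6.58 in C57BL/6 stroke arrays. It ranged over 6.43 to 6.51 in TNFko naive and 6.46 to 6.62 in C57BL/6 naive arrays. The mean over 7 oligodendrocyte markers ranged over 9.16 to 9.39 in TNFko stroke and 9.50 to 9.82 in C57BL/6 stroke arrays. In naive brain it ranged over 9.36 to 9.49 in TNFko and 9.45 to 9.75 in C57BL/6 arrays, with group means of 9.40 in TNFko and 9.63 in C57BL/6. All 7 were below 0 for TNFko against C57BL/6 in both conditions. Of all 19938 genes, 10152 were below 0 in naive brain and 10393 after stroke. The myelin enzyme gene Cnp was lower in TNFko by -0.46 ± 0.08 after stroke (limma adjusted p = 0.00503). The part of these cells in the lower endothelial values was not tested.

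Of 20 further barrier transporters and receptors, 0 passed in either genotype with limma. At an unadjusted p under 0.05 there were 6 in TNFko (30.0%, against 8.39% of all genes) and 8 in C57BL/6 brain (40.0%, against 17.1%). Over both genotypes 2 were higher (against 1.78% of all genes), the glucose carrier Slc2a1 (0.28 ± 0.07, limma adjusted p = 0.0437) and Slc3a2, the heavy chain that pairs with the Slc7a5 product (0.24 ± 0.05, adjusted p = 0.0179). The 2 lower ones (against 1.03% of all genes) were the carbonic anhydrase Car4 (-0.33 ± 0.07, adjusted p = 0.0156) and the glutamine carrier Slc38a3 (-0.27 ± 0.06, adjusted p = 0.0107). Of 18 Wnt and Norrin pathway genes, 0 passed after stroke in TNFko brain (3 at an unadjusted p under 0.05, 16.7% against 8.39% of all genes) and 2 were higher in C57BL/6 brain (against 1.34% of all genes), the ligand Ndp (0.48 ± 0.09, adjusted p = 0.0118) and its coreceptor Tspan12 (0.44 ± 0.09, adjusted p = 0.0124). Of the 18, 13 had a stroke change below 0 in TNFko and 12 in C57BL/6 brain. All 3 at an unadjusted p under 0.05 in TNFko brain were lower. In C57BL/6 brain there were 4 (22.2%, against 17.1% of all genes), 2 higher and 2 lower. The Wnt receptor Fzd6 was lower in TNFko both after stroke (-0.61 ± 0.10, limma adjusted p = 0.0048) and in naive brain (-0.51 ± 0.10, adjusted p = 0.0337). Of 17 further junction genes 1, the alpha-catenin Ctnna1, was higher in C57BL/6 brain (0.31 ± 0.07, adjusted p = 0.0399) and 0 passed in TNFko brain. Of the 17, 0 (0%) were at an unadjusted p under 0.05 in TNFko brain, against 8.39% of all genes, and 5 were in C57BL/6 brain (29.4%, against 17.1%). Of 19 further pericyte and smooth muscle genes, 0 passed in TNFko brain (4 at an unadjusted p under 0.05, 21.1% against 8.39% of all genes) and 1 in C57BL/6 brain (2 at an unadjusted p under 0.05, 10.5% against 17.1% of all genes), the sphingosine phosphate receptor S1pr3 (0.74 ± 0.10, adjusted p = 0.000399), which also stands in the reactive astrocyte list. In TNFko brain S1pr3 ranged over 6.44 to 6.63 after stroke and 5.95 to 6.36 in naive mice. Over both genotypes it rose by 0.57 ± 0.07 (limma adjusted p = 5.91e-05). Most of this list went the other way, with 14 of the 19 below 0 in each genotype. The median change was -0.05 in TNFko and -0.13 in C57BL/6 brain. Of all 19938 genes, 10002 were below 0 in TNFko and 10262 in C57BL/6 brain. At an unadjusted p under 0.05, 1 of the 19 was higher and 3 lower in TNFko, and 1 higher and 1 lower in C57BL/6 brain. Of 10 transcytosis and fenestration genes, 0 passed in TNFko brain (0 at an unadjusted p under 0.05, against 8.39% of all genes) and 1 in C57BL/6 brain (3 at an unadjusted p under 0.05, 30.0% against 17.1% of all genes), the endocytic recycling gene Ehd4 (0.47 ± 0.10, adjusted p = 0.021). Of 19 further VEGF, angiopoietin and PDGF-B pathway genes, 0 passed in either genotype. In each genotype 4 were at an unadjusted p under 0.05, 21.1% of the list, against 8.39% of all genes in TNFko and 17.1% in C57BL/6 brain. Over both genotypes, the vasodilator peptide Adm (0.39 ± 0.08, adjusted p = 0.0118) and the chemokine receptor Cxcr4 (0.34 ± 0.09, adjusted p = 0.0332) were higher and the phosphatase Ptprb, which opposes Tie2 signalling, was lower (-0.31 ± 0.07, adjusted p = 0.0275). All-gene shares over both genotypes were 1.78% higher and 1.03% lower.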

How the data were processed

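Total RNA of whole brain was extracted with Trizol and labelled with biotin for Affymetrix Mouse Gene 1.0 ST arrays, per the labels' protocols. The authors deposited log2 summaries, 1 per probe set and array. Per the submitters' processing notes the tools were GCOS, RMA, GCRMA and Partek, with neither versions nor roles given. Array medians of 6.01 to 6.05 show that the deposited log2 values had been brought to a common centre. Of 28944 probe sets, 21789 had 1 symbol in GEO's platform annotation, 1621 several and 5534 none. Genes with several such probe sets (999) were represented by the one with the highest mean, giving 19938 genes. Probe-level signals and detection calls were not used, and dim probe sets were kept. Precision is limited by the 4 arrays per group.

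The members and all lists of related genes were chosen with earlier results of these data known. A model of 4 group means over 16 arrays was fitted with limma 3.58.1 in R 4.3.3 (12 residual and 7.52 prior degrees of freedom, two-sided, Benjamini-Hochberg over 19938 genes, threshold 0.05). "Over both genotypes" is the mean of the 2 stroke changes. Comparisons that share arrays (stroke against naive and TNFko against C57BL/6) are not independent. Named are Tnf, the 33 tested members, up to 4 genes with the smallest p past the threshold per pathway list and comparison, and up to 3 per marker list. Genes named as gained in another setting or as below an unadjusted threshold are members. Alternatives tried were a stricter threshold of 0.01, median centring, quantile normalization, dropping the dimmest 33.3 percent of genes, averaging probe sets, trended and robust variances, fits of only the groups compared, a replicate block, a term for the name prefix, and dropping each array. Changes within a prefix were added after seeing the data. Same-numbered arrays of stroke and naive groups correlated in their deviations from the group means at -0.075 to 0.182 in C57BL/6 and 0.036 to 0.34 in TNFko, and the numbers were not taken as pairs. In TNFko the arrays numbered 1 and 4, which share a prefix, gave 0.34 and 0.219. Those numbered 2 and 3, which do not, gave 0.036 and 0.14. Differently numbered arrays were not correlated, and the part of the prefix in these values was not tested. The fits were tested on simulated data. Promoters came from a RefSeq table of GRCm38.p6, with 1 entry for each printed gene. Figures used matplotlib 3.10.9 and tables pandas 2.3.3 and numpy 2.4.6, under Python 3.11.15.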

Additional observations from a re-analysis of the deposited data

Results flagged for a closer look

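Of 132 sets of 4 arrays (33 genes in 4 groups), 6 had 1 array far from the other 3 by Dixon's criterion, where chance alone gives about 1 in 20. TNFko stroke array 1 held 3 of the 6. It was highest for Sele at 6.14, against 5.71 to 5.74 in the other 3, and for the Wnt effector Lef1 at 7.12, against 6.98 to 7.00. It was lowest for the angiopoietin receptor Tek at 5.95, against 6.45 to 6.52. TNFko stroke array 2 was lowest for Angpt2 at 5.04, against 5.42 to 5.47, and TNFko stroke array 4 was highest for Tjp1 at 9.38, against 9.30 to 9.31. C57BL/6 stroke array 4 was highest for Icam2 at 5.84, against 5.52 to 5.54. TNFko stroke array 1 is also the only stroke array of TNFko with the KL76 prefix, and the part of that prefix in its values was not tested.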

How the results depend on the processing

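No called gene changed sign under any setting tried. The threshold of 0.01 left 1 gene for stroke in C57BL/6 brain (Mfsd2a), 0 in TNFko brain, 2 over both genotypes (Mfsd2a and Icam1) and 0 between genotypes after stroke. Fitting only the groups compared left 1 gene for stroke in TNFko brain (Rgs5, with Sele at adjusted p = 0.0506) and 0 between genotypes after stroke (Cldn5 at adjusted p = 0.0644). Over the fits that left out 1 array each, the counts ran from 0 to 2 for stroke in TNFko brain, 1 to 3 in C57BL/6 brain, 4 to 5 over both genotypes and 0 to 1 between genotypes after stroke, and stayed at 0 in naive brain and for the difference of the stroke changes. Of those 16 fits, Cldn5 passed in 5, Rgs5 in TNFko brain in 5 and Sele in TNFko brain in 10, while Mfsd2a, Icam1, Sele and Rgs5 over both genotypes passed in all 16. With the replicate block the counts were 1 for stroke in C57BL/6 brain, 2 in TNFko brain, 4 over both genotypes and 1 between genotypes after stroke, as without it. With the prefix as a term Rgs5 in TNFko brain did not pass (-0.61, adjusted p = 0.0629), while Sele and Icam1 did. Leaving out dim genes gave 5 over both genotypes, with Tie1 added. Quantile normalization, median centring, the mean of probe sets and trended variances kept every count. The median SE of a stroke change was 0.0994 over all genes. Stroke changes of 0.32 for Cdh5 and 0.35 for Icam1 in C57BL/6 brain did not pass. Other causes of lost calls were not tested.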
